A study of Mus musculus with 4 samples.

Results

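Penk-positive hormone-sensing cells of the Y541S giredestrant library are the subject here: 525 cells, out of 1494 hormone-sensing cells in that library and 25950 cells kept in the series. The members were chosen by a rule that uses measured counts. A cell barcode needed at least 1000 UMIs (unique molecular identifiers, each 1 counted transcript) over at least 500 genes, with no more than 15% of them mitochondrial. In UMIs per 10000, the sum of Esr1, Prlr, Areg and Foxa1 had to be 10 or more, the smooth muscle sum of Acta2, Myh11, Mylk and Tagln below 10, the secretory sum of Wfdc18, Csn3, Elf5 and Kit below 10, and Krt14 below 3. At least 1 UMI of Penk was then required. The 969 hormone-sensing cells of the same library with no Penk UMI are the comparison, called Penk-negative cells below.

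The series profiled EpCAM+ epithelial cells, sorted from mouse mammary glands, by 10x Genomics 3' single-cell RNA sequencing. All animals were raised to 6 months of age and carried estradiol and progesterone pellets. They were wild type (WT) for Esr1, the estrogen receptor gene, or carried the Y541S mutation, and received vehicle (MCT) or giredestrant, a drug given by mouth that blocks the estrogen receptor and causes its breakdown, at 30 mg/kg daily for 4 days. The 4 groups were WT vehicle, WT giredestrant, Y541S vehicle and Y541S giredestrant, with 1 library each; the number of animals behind a library and whether 1 or both Esr1 alleles carry the mutation are not given in the sources used here. With 1 library per group there is no replicate and no test. Every interval below is an exact 95% interval that covers counting error only, and a ratio compares pools of cells, not animals.

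Penk encodes proenkephalin, the precursor of the enkephalin opioid peptides, which prohormone convertases and carboxypeptidases cut out in the secretory pathway. Hormone-sensing luminal cells line the mammary ducts, carry the estrogen, progesterone and prolactin receptors, and pass hormone signals to neighbouring cells through secreted factors. Tnfsf11 (RANKL, which acts on receptor RANK) is the best known of these factors and is induced by progesterone. Calca encodes calcitonin and, by alternative splicing, the neuropeptide CGRP. 3' counting does not separate those forms. Mgat4c encodes a glycosyltransferase of the N-glycan branching family.

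Penk was found mainly in hormone-sensing cells of the Y541S giredestrant library. A Penk UMI was seen in 15 of 625 hormone-sensing cells of WT vehicle (2.40%, 1.35 to 3.93), in 0 of 1032 of WT giredestrant, in 110 of 2065 of Y541S vehicle (5.33%, 4.398 to 6.38) and in 525 of 1494 of Y541S giredestrant (35.1%, 32.7 to 37.6). A count of 0 of 1032 cells allows a share of up to 0.291%. The share in Y541S giredestrant was above those of the other 3 libraries although its hormone-sensing cells were the shallowest, with a median of 9263 UMIs against 25135 in Y541S vehicle, 28772 in WT vehicle and 29602 in WT giredestrant. With every cell thinned to 4000 UMIs the shares were 0.492%, 0%, 2.39% and 28.4% in the same order. The summed Penk level over all hormone-sensing cells was 1.82, 0, 15.6 and 270 CPM (the UMIs of a gene out of each 1000000 UMIs of the pool; 262 to 278 in Y541S giredestrant). In the same order, the Krt14 limit kept 625 of 634, 1032 of 1040, 2065 of 2075 and 1494 of 2455 cells passing other gates. Of the 961 cells it left out in Y541S giredestrant, 94 held a Penk UMI. The share in that library thus depends on this limit more than the other shares do.

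**Figure D1:**
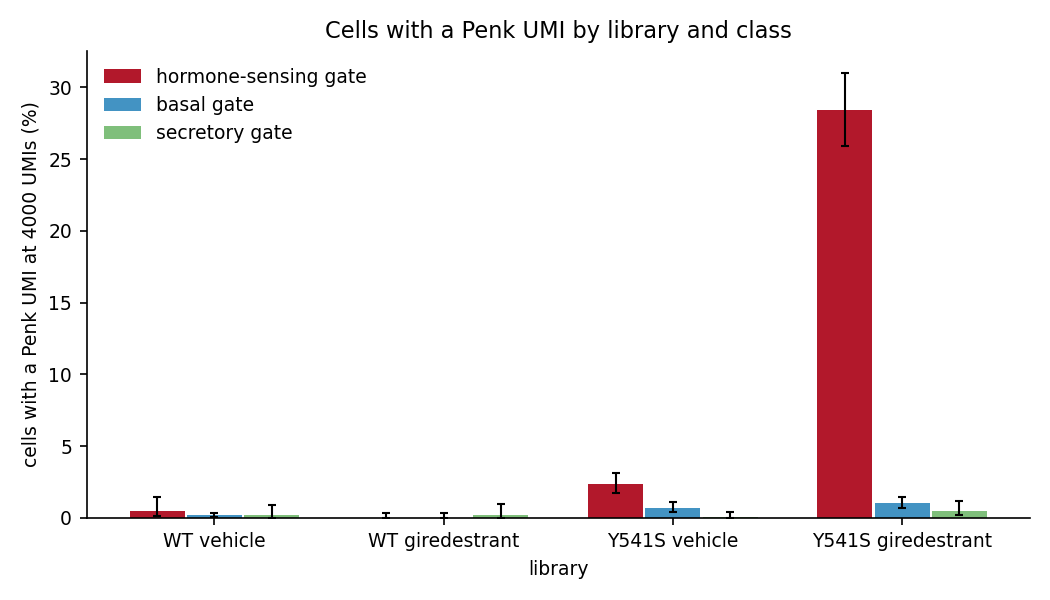
Share of cells with a Penk UMI after each cell was thinned to 4000 UMIs, by library (x axis) and class of cell (colour), with exact 95% binomial intervals that cover counting error. Hormone-sensing cells of Y541S giredestrant stand at 28.4%, those of Y541S vehicle at 2.39%, and basal and secretory cells of Y541S giredestrant at 1.01% and 0.508%.

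Basal and secretory cells were taken as the background for Penk, and whether they express it was not tested. In the Y541S giredestrant library, 1.37% of 3861 cells passing the basal gate (median 5366 UMIs) and 1.15% of 1305 cells passing the secretory gate (median 6998 UMIs) held a Penk UMI. Hormone-sensing cells held 82.0% of all Penk UMIs of the kept cells. A further 5.60% lay in cells that met the hormone-sensing rule except for Krt14, and 8.81% in cells with hormone-sensing genes together with basal or secretory genes. The basal and secretory shares of Y541S vehicle were 1.44% and 0.262%, so the 5.33% in its hormone-sensing cells, which are deeper than its basal cells, stands closer to its background than the value of Y541S giredestrant does.

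The label of the cells was compared with genes the rule did not use. Calca, Tnfsf11 and Mgat4c were picked as markers of these cells with results of these data known, so they are no independent check. All 3 were detected in 405 members (77.1%) and in 277 Penk-negative cells (28.6%). None of the 3 was detected in 5 members and 71 Penk-negative cells. These counts are unthinned, and the members were the deeper cells. Of 9 luminal keratins and adhesion genes none differed by 2-fold: Krt8, a luminal keratin, stood at 2191 CPM in Penk-positive and 1984 CPM in Penk-negative cells. Of the 10 hormone-sensing markers outside the gate, Gata3, a luminal transcription factor, was higher (149 against 72.7 CPM), none was lower by 2-fold, and Pgr, the progesterone receptor, stood at 374 and 329 CPM. Several defining markers of other cells were absent: Ptprc (immune), Kdr and Pdgfrb (endothelial and pericyte), and Insm1 and Neurod1 (neuroendocrine) had no UMI in either pool. The summed levels of whole marker lists in Penk-positive and Penk-negative cells were 8.89 and 4.35 CPM for immune cells, 8.60 and 5.76 CPM for fibroblasts, 4.95 and 8.48 CPM for Schwann and neuroendocrine cells and 206 and 253 CPM for secretory luminal cells. The endothelial and pericyte list stood at 46.9 and 11.7 CPM, most of it Pecam1. The list of basal markers outside the gate was the highest of these, at 594 and 1404 CPM, with Krt15 at 483 CPM, Krt17 at 39.8 CPM and Trp63 at 24.0 CPM in the members. The cells are called hormone-sensing by the rule, and they also held these basal transcripts.

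The members were deeper than the cells they are compared with. Their median was 11865 UMIs and 4023 genes, against 8057 UMIs and 3023 genes in Penk-negative cells, with 1.94% and 2.41% mitochondrial and 9.57% and 13.4% ribosomal protein UMIs. The share of hormone-sensing cells with a Penk UMI was 18.4% below 5000 UMIs, 30.7% from 5000 to 10000, 43.2% from 10000 to 20000 and 55.0% at 20000 or more. Penk-negative therefore means only that no Penk UMI was sampled. Of the members' barcodes, 1 also occurs in WT giredestrant, 2 in Y541S vehicle and 0 in WT vehicle.

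Penk itself varied widely among the members. Of them, 154 had 1 Penk UMI, 153 had 2 to 4, and 218 had 5 or more. The median was 3 UMIs and the highest 133, and in UMIs per 10000 Penk ran from 0.195 through a median of 3.23 to 71.6. The 52 members with the most Penk UMIs held 49.7% of the pool's Penk UMIs. Just inside the gate, 5 members had a hormone-sensing sum of 10 to 12 per 10000, and the lowest sum was 10.2. Just outside it, 24 cells passed the other gates with a sum of 8 to 10, and 6 of them held a Penk UMI. Just inside the Penk threshold, the 154 cells with 1 UMI had a median of 8762 UMIs, and the cells just outside it, with none, 8057.

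The levels of several secreted factors ordered with the number of Penk UMIs. The depth of the cells ordered alike, at a median of 8057, 8762, 10873 and 14166 UMIs with 0, 1, 2 to 4 and 5 or more Penk UMIs. Calca stood at 2253 CPM in cells with no Penk UMI, 5944 with 1, 7840 with 2 to 4 and 13745 with 5 or more. Tnfsf11 stood at 147, 307, 439 and 490 CPM in the same order. Slpi, a secreted inhibitor of leukocyte proteases, stood at 143, 520, 1078 and 1648 CPM, and Wfdc12, another inhibitor with a whey acidic protein domain, at 298, 1415, 1873 and 3179 CPM. Each of these 4 was higher in every step, including the step from no Penk UMI to a single one. Mgat4c spanned a narrower range, 1021, 1264, 1371 and 1570 CPM. Krt6a, a keratin of stressed and proliferating epithelium, ran the other way, at 952, 505, 262 and 84.6 CPM, and so did Greb1, an estrogen receptor target, at 95.7, 80.2, 58.1 and 46.6 CPM. Upk3a, a uroplakin of the bladder lining, stood at 36.6, 9.79, 2.69 and 1.19 CPM.

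**Figure D2:**
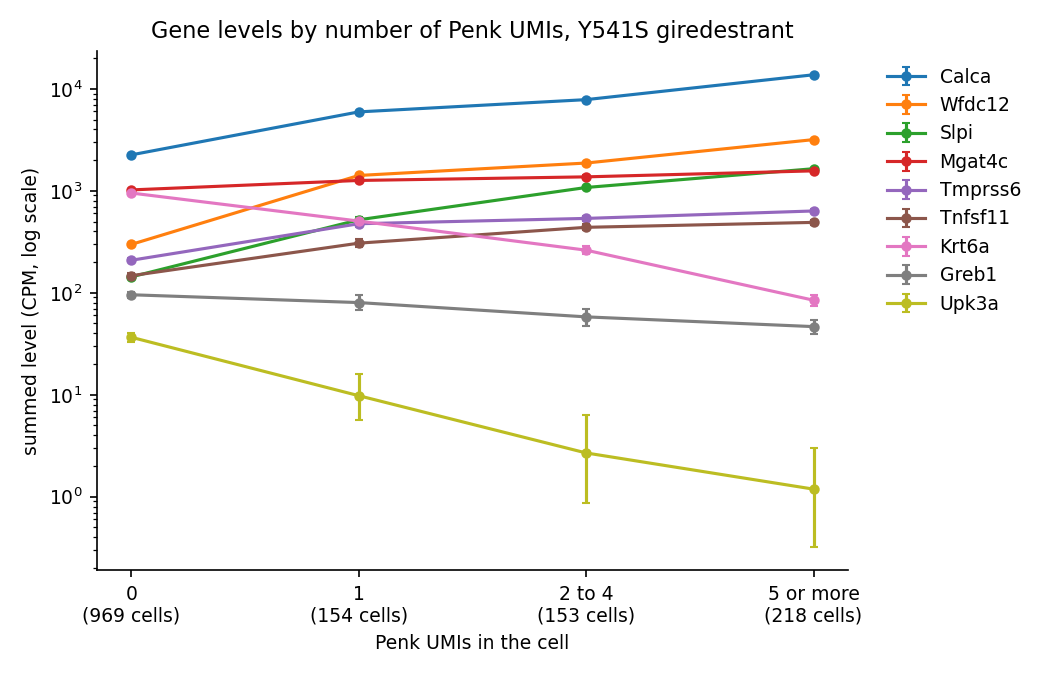
Summed level of 9 genes (CPM, log scale) in hormone-sensing cells of Y541S giredestrant with 0, 1, 2 to 4 and 5 or more Penk UMIs, with exact 95% Poisson intervals that cover counting error. Calca, Wfdc12, Slpi and Tnfsf11 are higher at each step, from 2253 to 13745 CPM for Calca, while Krt6a goes from 952 to 84.6 CPM and Upk3a from 36.6 to 1.19 CPM. The median depth of the cells also rises, from 8057 to 14166 UMIs.

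Across the transcriptome, a gene was called measured where at least 20 UMIs would be expected in the smaller pool at equal levels, and higher or lower at 2-fold or more. Of 11837 measured genes, 346 (2.92%) were higher and 580 (4.9%) lower in Penk-positive than in Penk-negative cells, and the median gene lay at a log2 ratio of 0.07. These background shares are the ones against which each list below is read. Penk and the genes of the gate chose the cells and are left out of the named genes.

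Among secreted factors and their partners, Calca was 10290 CPM in Penk-positive and 2253 CPM in Penk-negative cells, a log2 ratio of 2.19 (2.17 to 2.21). It lies on chromosome 7 (114631478 to 114636357, minus strand, GRCm38). Per cell, Calca in the members ran from 0 through a median of 86.8 to 754 UMIs per 10000, and in Penk-negative cells from 0 through 4.44 to 321, so the pools overlap while their medians lie far apart. With cells thinned to 4000 UMIs (482 members and 774 Penk-negative cells, with 43 and 195 shallower cells left out), Calca was detected in 95.4% of members and 63.2% of Penk-negative cells. Basal and secretory cells of the library thinned alike held it in 11.99% and 12.5% of cells. Calcb, the neighbouring gene for a closely similar peptide whose reads may be hard to separate from those of Calca, was lower, at 3.64 against 16.2 CPM. The receptors Calcr and Calcrl had 0 UMIs in the members.

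Tnfsf11 (chromosome 14, 78277445 to 78308043, minus strand) stood at 433 against 147 CPM, a log2 ratio of 1.56 (1.46 to 1.65). Thinned, it was detected in 64.7% of members and 28.2% of Penk-negative cells, against 0.737% of basal and 0.813% of secretory cells. Tnfrsf11b, which encodes osteoprotegerin, the soluble decoy of RANKL, was also higher, at 12.2 against 3.04 CPM (log2 2.01). Basal cells of the library held Tnfrsf11b at 32.6 CPM, so it is more a basal transcript there. Of 5 measured genes of the RANKL axis 2 were higher and 1 lower, Nfkb2, a subunit of NF-kB, at 8.45 against 22.6 CPM. Tnfrsf11a, the receptor RANK, had 2 UMIs in Penk-positive and 35 in Penk-negative cells, too few to be measured.

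Mgat4c (chromosome 10, 101681487 to 102391469, plus strand) differed less, at 1443 against 1021 CPM (log2 0.50, 0.46 to 0.54). It was detected, thinned, in 89.0% of members and 76.9% of Penk-negative cells. Basal and secretory cells held it in 4.15% and 3.76%. Mgat4c thus marked most hormone-sensing cells of the library, with and without Penk, while Calca and Tnfsf11 differed more between the pools.

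The promoter of Calca is shown because Calca differed most in level among the markers Calca, Tnfsf11 and Mgat4c. The 250 bases before its annotated start (RefSeq, GRCm38.p6, chr7:114636358-114636607, minus strand, printed 5′ to 3′ along the gene) read as follows, with 2 short motifs in capitals.
Calca: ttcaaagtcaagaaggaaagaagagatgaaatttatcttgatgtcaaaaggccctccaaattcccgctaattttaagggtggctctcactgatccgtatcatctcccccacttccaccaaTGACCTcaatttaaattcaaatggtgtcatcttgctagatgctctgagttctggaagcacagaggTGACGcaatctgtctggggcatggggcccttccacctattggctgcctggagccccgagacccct
Searched on both strands were AGGTCA, the half-site of the estrogen response element, TGACG, the half-site of the cAMP response element, and TGTTCT, the half-site bound by the progesterone receptor. AGGTCA was found once, on the opposite strand (printed TGACCT), 130 to 125 bases before the start, and TGACG once, 65 to 61 bases before it, and the matches do not overlap. Of 32851 promoter windows of this length, 14.0% hold AGGTCA, 17.8% TGACG and 16.1% TGTTCT. The Tnfsf11 window held none of the 3. These matches describe letters, and binding was not measured.

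The genes furthest above Penk-negative cells were led by a pair of protease inhibitors. Slpi (1225 against 143 CPM, log2 3.10, 3.01 to 3.18) and Wfdc12 (2405 against 298 CPM, log2 3.01, 2.95 to 3.07) lie in the same region of chromosome 2, at 164354070 to 164389095 and 164189231 to 164190608. Slpi was seen in 68.2% and Wfdc12 in 52.8% of members. Basal cells of the library held Slpi at 131 CPM, close to its level in Penk-negative cells, and Wfdc12 at 4.57 CPM. Pnmt, the enzyme that turns noradrenaline into adrenaline, stood at 131 against 18.6 CPM (log2 2.82) and was seen in 24.4% of members. Hsd11b2, which inactivates glucocorticoid, stood at 32.9 against 6.74 CPM, and Gldc, the glycine decarboxylase of the glycine cleavage system, at 19.96 against 4.24 CPM.

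The other members of the 12 highest were Ceacam10, Calca, Folr2, Aplp1, Serpine2, Pecam1 and Neb, with log2 ratios from 2.06 to 2.25. Folr2, a folate receptor, stood at 51.3 against 11.3 CPM, and Serpine2, a secreted serine protease inhibitor, at 62.1 against 14.5 CPM. Both were at like or higher levels in vehicle-treated Y541S hormone-sensing cells with and without Penk (Folr2 77.7 and 79.8 CPM, Serpine2 137 and 184 CPM). For these 2 genes the Penk-positive cells of Y541S giredestrant were thus nearer to vehicle cells than the Penk-negative cells were. Pecam1, best known as an endothelial adhesion molecule, stood at 42.7 against 10.0 CPM, was seen in 9.33% of members, and drew 28.3% of its UMIs from 1 cell. The endothelial genes Cdh5 and Cldn5 had 1 UMI each in the members and Kdr had 0.

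The 12 lowest genes were Ifi202b, Csf3, Upk3a, Slc14a1, Abcb1b, Chl1, Krt16, Igfbp4, Abi3bp, Angpt1, Crabp1 and Dapl1, with log2 ratios from -3.81 to -2.63. Csf3, the granulocyte growth factor G-CSF, stood at 1.89 against 22.6 CPM. Upk3a stood at 3.64 against 36.6 CPM, Krt16, a stress keratin, at 17.8 against 126 CPM, and Igfbp4, a binding protein of insulin-like growth factors, at 4.95 against 33.0 CPM. Ifi202b, an interferon-inducible gene with close copies that can share reads, stood at 4.37 against 61.5 CPM. These transcripts were sparse in Penk-negative cells too: Upk3a was seen in 94 of them and Csf3 in 60. Some stood higher in other cells of the library than in Penk-negative cells. Secretory cells held Csf3 at 66.0 CPM and Angpt1 at 39.7 CPM (21.0 in Penk-negative cells). Basal cells held Abcb1b at 63.0 CPM and Chl1 at 22.6 CPM (23.0 and 19.1 in Penk-negative cells). The rest of the 12 were lower in both classes than in Penk-negative cells.

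**Figure D3:**
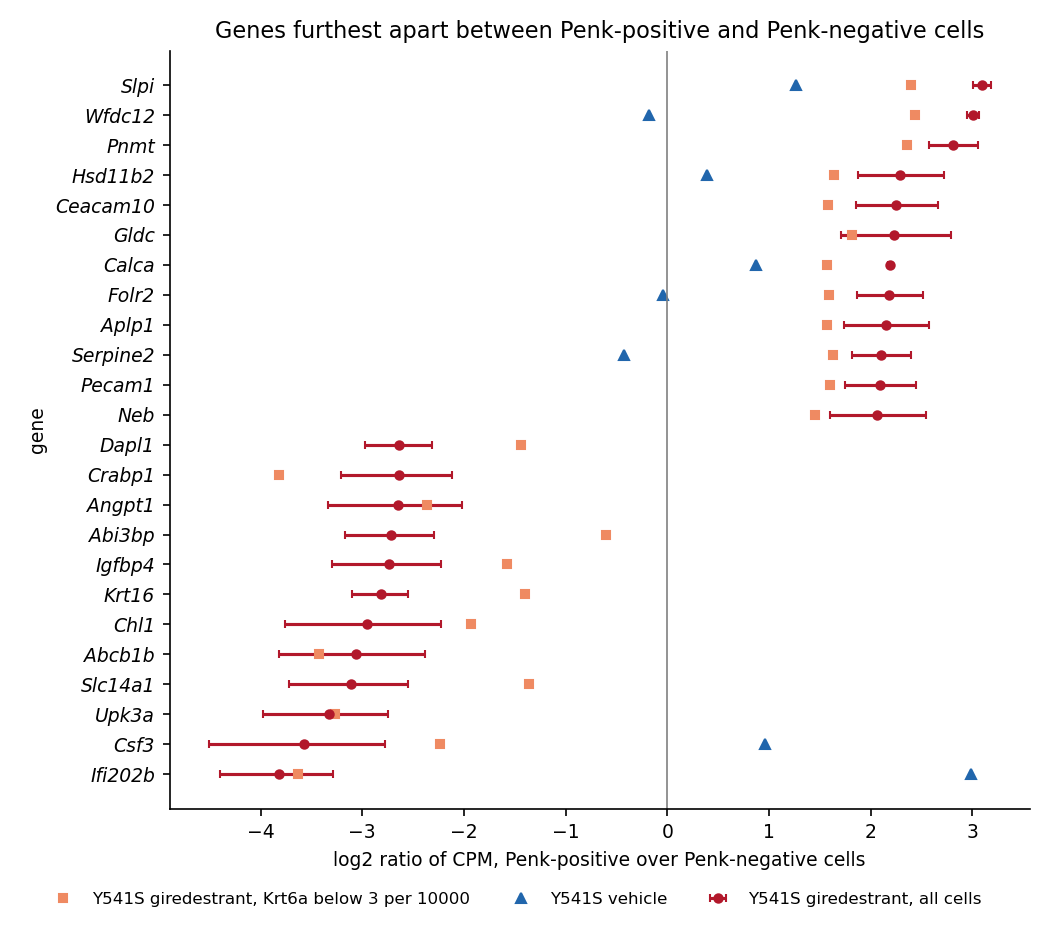
Log2 ratio of summed CPM, Penk-positive over Penk-negative cells, for the 12 highest and 12 lowest genes of Y541S giredestrant (circles, with exact 95% intervals that cover counting error), the same without cells with Krt6a at 3 or more per 10000 (squares), and in Y541S vehicle where measured (triangles). Slpi stands at 3.10, 2.40 and 1.27 in that order, and Ifi202b at -3.81, -3.63 and 2.99.

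No measured prohormone processing gene differed by 2-fold between the whole pools of this library. Of 19 genes of processing and dense core granules, 4 were measured, with a median log2 ratio of -0.45. Cpe, the carboxypeptidase that trims enkephalins, stood at 96.2 against 173 CPM (log2 -0.84), Pam, which amidates peptides, at 115 against 197 CPM, Furin, a general proprotein convertase, at 71.4 against 58.6 CPM, and Cpd at 44.4 against 48.4 CPM. The neuroendocrine convertases were near 0, with 3 UMIs of Pcsk1 and 1 of Pcsk2 over all 525 members, and Chga, Chgb and Scg2, granins of dense core granules, had 0. Of the opioid receptors, Oprk1 and Oprl1 had 0 UMIs, Oprd1 1 and Oprm1 2, and the other opioid precursors Pdyn and Pnoc had 0.

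Steroid receptor targets did not all differ in 1 direction. The 2 higher ones among 13 measured progesterone response and paracrine genes were Calca and Tnfsf11, both already picked as markers of these cells. None of the 13 was lower, and the median log2 ratio was 0.22 beside 0.07 for all genes. Wnt4, a progesterone-induced ligand, stood at 724 against 463 CPM (log2 0.64), Fkbp5 at 260 against 224 CPM and Zbtb16 at 199 against 175 CPM, both common steroid receptor targets. Stc2, Fhl2, Igfbp4, Mybl1 and Rerg were the 5 lower ones among 18 measured estrogen response genes, none was higher, and the median was -0.17. Stc2, the secreted stanniocalcin 2, stood at 37.3 against 135 CPM and Greb1 at 57.7 against 95.7 CPM.

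Genes already known as gained under giredestrant in Y541S hormone-sensing cells were chosen on these libraries and are no independent evidence of a direction. Of the 9, 5 were higher in Penk-positive cells (Calca, Tnfsf11, Erbb4, Unc5d and Tmprss6) and 0 lower. Erbb4, a receptor of the EGF family, stood at 316 against 91.5 CPM, Unc5d, a netrin receptor, at 589 against 180 CPM, and Tmprss6, a membrane serine protease, at 570 against 208 CPM. Secretory cells of the library held Erbb4 at 820 CPM, above both pools, and basal cells at 18.9 CPM, so it is more a secretory transcript there. Basal and secretory cells held Unc5d at 5.70 and 11.4 CPM and Tmprss6 at 3.12 and 4.14 CPM, under both pools. Rhox5, a homeobox gene, stood at 241 against 156 CPM, Emb, an adhesion gene of the immunoglobulin family, at 165 against 142 CPM, and Cpe was on the other side of 0. Unc5d stood at 2.12 CPM in Penk-positive and 3.27 CPM in Penk-negative cells of Y541S vehicle, under either pool of this library, while Tnfsf11 in Penk-negative cells here (147 CPM) was under the 165 CPM of Penk-positive vehicle cells.

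The difference in Unc5d and Erbb4 depended on the cells' depth and RNA content. Below 5000 UMIs, Unc5d stood at 399 CPM in Penk-positive and 412 CPM in Penk-negative cells, and at 20000 or more at 590 and 38.8 CPM. Erbb4 stood at 158 and 220 CPM in the shallowest cells and at 382 and 103 CPM in the deepest. Calca differed alike in all 4 depth ranges, at 10140 against 1752 CPM in the shallowest and 10120 against 2441 CPM in the deepest. Cells with under 2% ribosomal protein UMIs made up 4.19% of members and 15.4% of Penk-negative cells. Their median mitochondrial share was 5.67% and 8.83%, and in them Unc5d stood at 1140 and 968 CPM and Mgat4c at 2566 and 2535 CPM. In cells with 2% or more, Unc5d stood at 577 against 110 CPM and Mgat4c at 1418 against 886 CPM. Without the cells under 2% (503 against 820 cells left), 421 genes were higher and 582 lower, all 59 followed genes kept their sign, and Calca stood at 10440 against 2371 CPM.

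**Figure D4:**
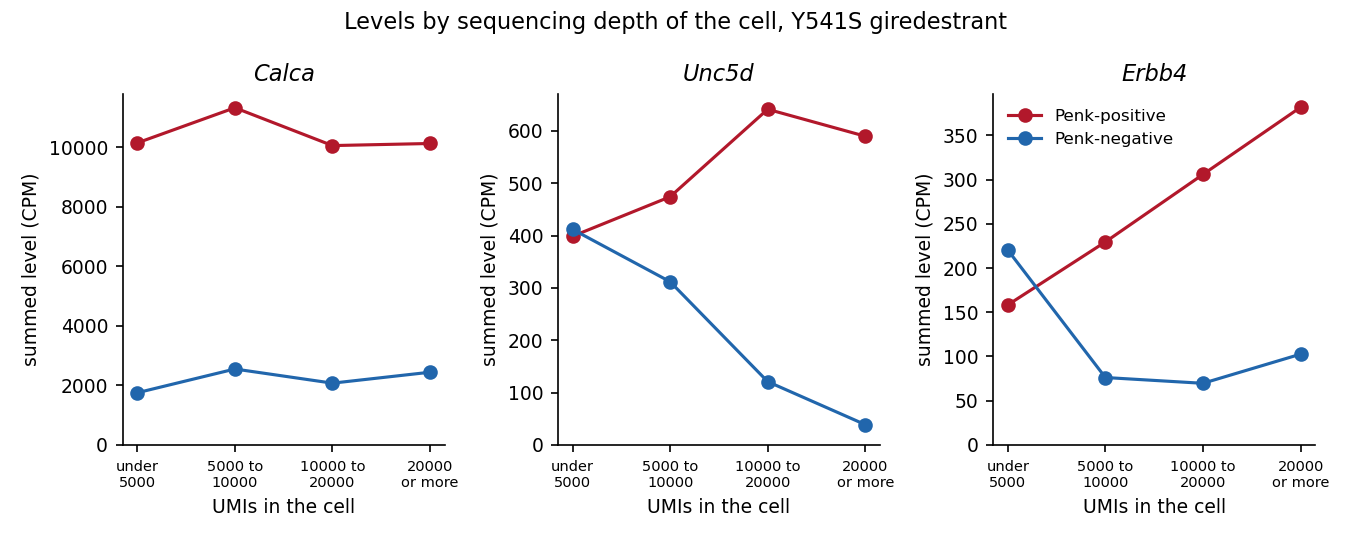
Summed level (CPM, linear axis from 0) of Calca, Unc5d and Erbb4 in Penk-positive and Penk-negative hormone-sensing cells of Y541S giredestrant, by the UMIs in the cell. Calca keeps the 2 pools apart in every range, while Unc5d (399 and 412 CPM) and Erbb4 (158 and 220 CPM) lie close or cross in cells under 5000 UMIs.

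Most measured EGF family genes apart from Erbb4 were lower, while the receptors Erbb2 and Erbb3 passed 2-fold in neither direction. Of 8 measured, 1 was higher and 5 were lower, with a median log2 ratio of -1.26. Egfr, the receptor of amphiregulin, stood at 45.5 against 264 CPM (log2 -2.54). The ligands Hbegf, Btc, Nrg1 and Tgfa stood at 36.3 against 161, 12.7 against 37.1, 11.5 against 28.9 and 47.6 against 108 CPM. Areg belongs to the gate and is given as a description only, at 1708 against 2956 CPM.

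Most mitotic genes were lower. Of 10 measured G2/M genes, 9 were lower by 2-fold or more and 0 higher, with a median log2 ratio of -1.26, and the tenth, Aurka, stood at 2.48 against 4.13 CPM. Mki67, a proliferation marker, stood at 16.5 against 48.6 CPM, Top2a, a topoisomerase, at 22.0 against 49.0 CPM, and Ccnb1, a mitotic cyclin, at 2.48 against 9.78 CPM. These UMIs came from few cells, for Cdk1 from 10 members and 35 Penk-negative cells. With each cell weighted equally, 5 of the 10 were lower by 2-fold, at a median of -0.98. With each cell thinned to 4000 UMIs, 4 were measured and 2 of them were lower. Of 12 measured S phase genes 1, Mcm5, a replication helicase subunit, was lower and 0 higher, with a median of -0.31. The 2-fold threshold was thus passed by most mitotic genes and by 1 replication gene.

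Secretory pathway chaperones leaned the other way. Among 10 measured unfolded protein response genes 3 passed 2-fold upward and none downward, and the median log2 ratio was 0.69. Pdia4, a disulfide isomerase, stood at 211 against 104 CPM, Sdf2l1, an endoplasmic reticulum chaperone cofactor, at 48.2 against 18.2 CPM, and Ddit3, the stress transcription factor CHOP, at 34.0 against 13.6 CPM. Hspa5, the chaperone BiP, stood at 656 against 500 CPM. Immediate early and heat shock genes, which mark dissociation stress, showed no gene of 12 past 2-fold in either direction, and of 11 cAMP response genes only Pde4b, a phosphodiesterase, was lower (28.6 against 96.3 CPM). Of 7 measured interferon genes 3 were higher (Isg15, Irf7 and Rsad2), but 92.9% of the Rsad2 UMIs and 56.0% of the Isg15 UMIs of the members came from 1 cell each. With Penk status taken from thinned counts Rsad2 and Isg15 lay at -2.56 and -0.91.

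**Figure D5:**
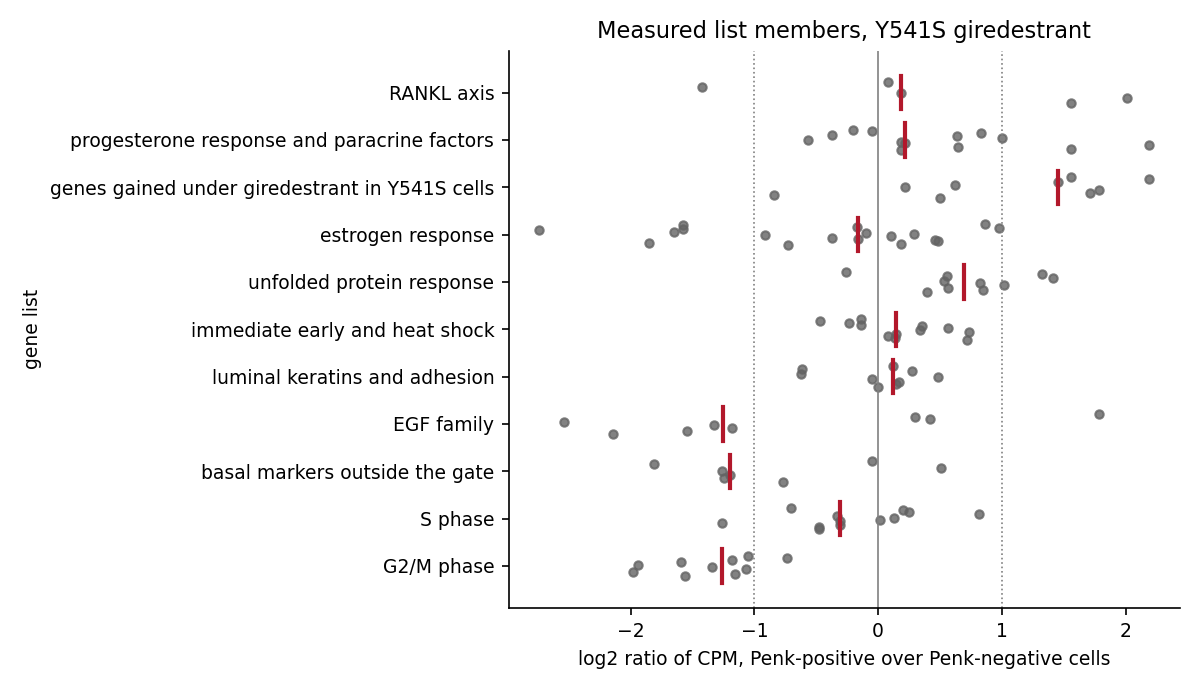
Log2 ratio of summed CPM, Penk-positive over Penk-negative cells of Y541S giredestrant, for each measured member of 11 gene lists (grey points), with the list median (red bar) and dotted lines at 2-fold. G2/M phase genes have a median of -1.26 with 9 of 10 past the left line, and unfolded protein response genes a median of 0.69 with 3 of 10 past the right line.

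Basal keratins and Krt6a moved with the comparison. Of 7 measured basal markers outside the gate, 4 were lower (Krt15, Krt17, Trp63 and Col17a1) and 0 higher. Krt15, a basal keratin, stood at 483 against 1150 CPM and Trp63, the basal transcription factor p63, at 24.0 against 57.6 CPM, and the summed level of the list was 594 against 1404 CPM. Krt6a reached 3 or more UMIs per 10000 in 82 members (15.6%) and in 462 Penk-negative cells (47.7%). The comparison was therefore repeated on the 443 Penk-positive and 507 Penk-negative cells below that level, a subset chosen after the values were seen. There 157 of 10951 measured genes (1.43%) were higher and 283 (2.58%) lower.

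In the cells with low Krt6a, the leading genes stayed apart by less. Calca stood at 11660 against 3929 CPM (log2 1.57), Tnfsf11 at 499 against 243 CPM (1.04), Slpi at 1370 against 260 CPM (2.40), Wfdc12 at 2701 against 500 CPM (2.44, 2.37 to 2.50) and Pnmt at 147 against 28.6 CPM (2.36). Unc5d (0.91) and Tmprss6 (0.86) were under 2-fold, and Cpe lay on the other side of 0, at 0.22. The basal list had 0 higher and 1 lower of 5 measured, the EGF family 1 higher and 2 lower of 8, and the estrogen response genes 0 higher and 1 lower of 15. The G2/M genes had 0 higher and 9 lower of 9 measured, with a median of -1.86. In the basal list, Krt15, Krt17 and Trp63 thus differed less without Krt6a-bearing cells, while Col17a1 differed more (-3.02, beside -1.81 in all cells). Of the estrogen response genes that were lower in all cells, Stc2 stayed past 2-fold (-1.80) and Fhl2 fell just short (-0.98). Igfbp4 (-1.58), Mybl1 (-1.57) and Rerg (-0.73) had too few counts to be measured, so the 2 estrogen response counts cover different genes. The G2/M median lay further out than in all cells (-1.26).

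The same rule was applied in the vehicle libraries, whose cells are not members. In Y541S vehicle, 131 of 9364 measured genes (1.4%) were higher and 108 (1.15%) lower in 110 Penk-positive than in 1955 Penk-negative cells. Tnfsf11 was higher there too, at 165 against 62.5 CPM (log2 1.40, 1.27 to 1.53), Slpi at 291 against 121 CPM (1.27), and Calca at 305 against 167 CPM (0.87). Wfdc12 was not, at 126 against 142 CPM. Mgat4c and Cpe did not reach the count needed to be measured there, but both were higher in Penk-positive cells, at 14.6 against 2.14 CPM (log2 2.77, 2.25 to 3.27) and 22.2 against 0.490 CPM (log2 5.50, 4.83 to 6.22). For Cpe this is the opposite direction to all cells of Y541S giredestrant, but not to its cells with low Krt6a (log2 0.22, -0.01 to 0.44). Of the gene lists, the G2/M phase had 0 of 10 measured genes past 2-fold in either direction in Y541S vehicle, with a median log2 ratio of 0.26, and the unfolded protein response 0 of 10, with a median of 0.20. In WT vehicle, 83 of 4700 measured genes (1.77%) were higher and 180 (3.83%) lower in 15 Penk-positive than in 610 Penk-negative cells. Those 15 cells held 34 Penk UMIs and were deeper, with a median of 43425 UMIs against 28590. Calca stood at 4973 against 1964 CPM, Tnfsf11 at 284 against 109 CPM and Slpi at 2312 against 649 CPM. Hsd11b2 lay in the other direction, at 31.9 against 47.5 CPM, and so did Pnmt, with 7 UMIs in the 15 cells (10.6 against 22.5 CPM). WT giredestrant had no Penk-positive cell. 

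Penk-positive cells of the Y541S libraries differed from each other in level. Of 9971 measured genes, 781 (7.83%) were higher and 770 (7.72%) lower in Y541S giredestrant than in Y541S vehicle, relative to a median gene at 0.22. Penk chose both pools, so its 632 against 257 CPM is given as a description only. Calca stood at 10290 against 305 CPM, Tnfsf11 at 433 against 165 CPM, Wfdc12 at 2405 against 126 CPM and Mgat4c at 1443 against 14.6 CPM. The Penk-negative cells also differed between these libraries, with Calca at 2253 against 167 CPM and Mgat4c at 1021 against 2.14 CPM. Treatment and library cannot be told apart, and the pools differ in depth, with a median of 11865 UMIs against 28020.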

How the data were processed

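Each matrix deposited by the authors gives unnormalized UMI counts for every gene in every barcode; Cell Ranger 6.0.1 made them, per the file headers, and the submitters' processing notes name GRCm38. The annotation release and the handling of intronic reads are not given in the sources used here. Cell and gene names came from the other deposited text files that accompany each matrix. The source label names mature luminal cells while the protocol describes an EpCAM+ sort, and basal and secretory cells were present. Barcodes were filtered and gated by the rule given in the report, without clustering. The 4 libraries hold 70781982 to 132660456 UMIs in 3667 to 10469 barcodes.

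Counts were summed over the cells of each pool and divided by the pool's UMIs (CPM). Ratios have exact conditional binomial intervals, levels exact Poisson and shares exact Clopper-Pearson intervals, all covering counting error only. No test was possible with 1 library per group. The members, gene lists and this rule were chosen with earlier results of these data known. Besides list members, the named genes are the 12 highest and 12 lowest by ratio among measured genes with a combined CPM of 10 or more, without Gm or Rik symbols, Penk and gate genes. Krt6a is outside this rule and was chosen after its values were seen. A zero count was read against a limit of 3 counts. Cells were thinned without replacement to 4000 UMIs for shares. Doublets were kept in the main comparison; as an alternative the highest Scrublet scores were left out, at an assumed 0.8% per 1000 cells (649 cells, 20 of them members; the automatic threshold marked 2.91%). Other alternatives changed the Penk minimum, thinning, scaling (TMM in edgeR 4.0.16), gates, count minimum and fold. Scripts were tested on simulated data. Software was Python 3.11.15, numpy 2.4.6, scipy 1.17.1, pandas 2.3.3, Scanpy 1.11.5 and R 4.3.3. Promoter windows come from RefSeq (GRCm38.p6). Reads of overlapping or antisense transcripts cannot be separated where strand use is not stated: Unc5d overlaps Svet1 and others, and Penk overlaps A830012C17Rik, which had 30 UMIs in hormone-sensing cells.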

Additional observations from a re-analysis of the deposited data

Results flagged for a closer look

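For 3 genes the Penk-positive to Penk-negative ratio pointed in opposite directions in the Y541S libraries, by 2-fold or more in each, and the difference was not tested. Ifi202b had a log2 ratio of -3.81 in Y541S giredestrant and 2.99 in Y541S vehicle, with 4.37 against 61.5 CPM and 54.9 against 6.93 CPM. Calcb had -2.15 and 1.22, with 3.64 against 16.2 CPM and 18.2 against 7.83 CPM. Krt15 had -1.25 and 1.59, with 483 against 1150 CPM and 276 against 92.0 CPM.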

How the results depend on the processing

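The counts of genes higher and lower by 2-fold (346 and 580) moved by over 1.5 times under 6 alternatives. They were 198 and 349 with each cell thinned to 4000 UMIs, 108 and 283 with Penk status taken from the thinned counts as well, 825 and 1130 at a minimum of 5 expected counts, 125 and 241 at 100, 1245 and 1261 at 1.5-fold, and 157 and 283 in cells with Krt6a below 3 per 10000 (chosen after seeing the data). TMM scaling gave 273 higher and 669 lower. Signs were kept by all 59 followed genes under 11 of the 13 alternatives that recompute them. The exceptions were Rsad2 (-2.56) and Isg15 (-0.91) with Penk status from thinned counts, and, with low Krt6a, Cpe (0.22), Pgr (-0.15), Zbtb16 (-0.17) and Trp63 (0.04). Pdia4 lay near 2-fold and was under it in 7 settings: low Krt6a (0.72), TMM (0.93), 2% or more ribosomal UMIs (0.95), thinned status and the gate at 20 (0.98 each), and Scrublet and 10% mitochondrial (0.99 each). Gata3 was under it with low Krt6a (0.62) and TMM (0.95), and Irf7 in 5 settings (0.35 to 0.99). Without its top cell Isg15 was at 0.33. The cause was not tested. The share of hormone-sensing cells with a Penk UMI was 0%, 0.492% and 1% in WT vehicle at 2000, 4000 and 8000 UMIs, and 0.640% at 2 or more Penk UMIs. In Y541S vehicle it was 1.42%, 2.39%, 3.001% and 3.05%, and in Y541S giredestrant 20.1%, 28.4%, 37.7% and 24.8%, in the same order. No paired analysis was possible because each group is 1 library and the labels give no replicate numbers. Depth limits the rare transcripts: a gene seen in few cells can rest on 1 of them.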
